A study of Homo sapiens with 3 samples.

Results

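Genes that encode receptors for collagen were examined, namely ITGA1, ITGA2, ITGA10, ITGA11, ITGB1, DDR1 and DDR2, which are 7 of the 16149 genes listed in at least 1 library. They were chosen by gene symbol, and a gene that a library did not list was taken as 0. Messenger RNA was sequenced from 3 cultured lines of human hepatocellular carcinoma (HCC), with 1 library each. According to the labels, all of them were HCCLM3, a metastatic human HCC line, and were grown in DMEM. The parent library was labelled as low in metastasis ability, subclone1 as higher and specific to lung, and subclone2 as able to reach both lung and celiac lymph node. No agent or genetic change that differs between the lines was given in the labels. The study's methods describe the parent as HCCLM3-R, a derivative that expresses red fluorescent protein and that those methods call highly metastatic. They describe the subclones as single-cell colonies from metastases in nude mice, so each subclone is 1 clone, and which of the study's clones were sequenced was not given in the sources used here. ITGA1 was picked by the study from a real-time PCR screen of such clones, so its direction here is not independent of that choice.

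An integrin is a pair of an α and a β subunit that spans the cell membrane, binds the matrix outside and connects to actin through talin and kindlin inside. The collagen-binding integrins α1β1, α2β1, α10β1 and α11β1 each join 1 of the α subunits ITGA1, ITGA2, ITGA10 or ITGA11 to the common subunit ITGB1, and their α subunits bind collagen through an inserted I domain. The discoidin domain receptors DDR1 and DDR2 are receptor tyrosine kinases that are activated slowly by collagen and do not need integrins. In liver, the cells known to carry α1β1 include sinusoidal and stromal cells. Those known for α2β1 and DDR1 include epithelial cells, and those for α11β1 and DDR2 include stromal cells that make collagen.

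The values were RPKM, the reads of a gene scaled to the length of its model and to the total of the library. The totals read back from the RPKM were 4488825 reads in the parent, 4609696 in subclone1 and 4725150 in subclone2, and the libraries listed 14703, 14900 and 14931 genes. Intervals given below are exact at 95% and cover counting error only. With 1 library per line there is no replicate and no test between lines, and a ratio compares libraries rather than kinds of cell. Fewer cells of a type and less RNA per cell cannot be told apart in bulk RNA. HCC cells were checked by 8 hepatocyte markers. Of these, 7 were above 0 in the parent, 7 in subclone1 and 8 in subclone2, and their summed RPKM was 22.9, 98.0 and 100. HNF4A, the nuclear receptor that defines the hepatocyte programme, was at 11.7, 11.9 and 16.0 RPKM, while APOA1, SERPINA1 and TTR were below 1 RPKM in every library.

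ITGA1 and ITGA2 are neighbours on the plus strand of chromosome 5, with 30.1 kb between them. In the GENCODE annotation of GRCh38, which is not the hg19 build named in the submitters' processing notes, ITGA1 (Entrez gene 3672) spans 52787896 to 52959210 with 29 exons and ITGA2 (Entrez gene 3673) spans 52989326 to 53094779 with 30 exons. A further gene, PELO, which encodes a ribosome rescue factor, lies within ITGA1 on the same strand. Its coding sequence, from 52800395 to 52801837, is inside intron 1 of ITGA1. RefSeq places the starts of ITGA1 and PELO on the same base, 52787916, so that both genes share 1 promoter window there. In GENCODE the starts differ, at 52787896 for ITGA1 and 52787940 for PELO. The windows of 250 bases before the RefSeq starts on GRCh38.p14, chr5:52787666-52787915 for ITGA1 and PELO and chr5:52989102-52989351 for ITGA2, both on the plus strand, are shown because they separate a start shared by 2 genes from the start of the neighbouring α subunit. Capitals mark the GC box, GGGCGG or its complement CCGCCC, which was searched on both strands.
ITGA1 and PELO: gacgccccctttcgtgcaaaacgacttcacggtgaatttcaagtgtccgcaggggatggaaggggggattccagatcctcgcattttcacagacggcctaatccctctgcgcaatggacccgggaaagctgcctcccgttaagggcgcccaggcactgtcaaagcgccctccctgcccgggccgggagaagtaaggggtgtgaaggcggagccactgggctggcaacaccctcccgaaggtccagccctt
ITGA2: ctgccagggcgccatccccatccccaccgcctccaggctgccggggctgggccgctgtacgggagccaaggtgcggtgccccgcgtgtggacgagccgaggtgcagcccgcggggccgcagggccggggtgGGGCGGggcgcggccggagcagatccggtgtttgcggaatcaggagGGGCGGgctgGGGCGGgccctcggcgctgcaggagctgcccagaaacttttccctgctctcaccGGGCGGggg
The ITGA1 and PELO window had a GC content of 62.0% and 0 GC boxes, and the ITGA2 window had 76.4% and 4 GC boxes. Over 34943 RefSeq promoter windows of the same length the median GC content was 58.0%, and 42.5% held a GC box. CCAAT, found in 32.0% of all windows, and TATAAA, found in 10.8%, were in neither window on either strand. These counts describe letters in the windows and not the binding of any factor.

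The real-time PCR primers that the study used for ITGA1 are shown with the last 5 bases at the 3′ end in capitals, because they say which of these related genes that assay reads.
ITGA1 forward: ctggacatagtcatagtgCTGGA
ITGA1 reverse: acctgtgtctgtttagGACCA
Both primers matched ITGA1 transcripts with 0 mismatches and enclosed 116 bases, from base 969 to base 1084 of the full-length GENCODE transcript of ITGA1. The nearest match of the forward primer in another of the collagen receptors had 4 mismatches, in ITGA11. For the reverse primer it had 5 mismatches, in ITGA2 and ITGA10.

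ITGA1, the α subunit of α1β1, was the receptor that differed most between the parent and the subclones among the 4 that averaged 1 RPKM or more. Its level was 1.07 RPKM (0.675 to 1.60, from 23 reads) in the parent, 3.29 RPKM (2.58 to 4.14, from 73 reads) in subclone1 and 6.29 RPKM (5.30 to 7.41, from 143 reads) in subclone2. The 3 intervals did not overlap, and the level was lowest in the parent and highest in subclone2. Subclone1 was 3.09-fold higher than the parent (1.91 to 5.18) and subclone2 5.91-fold (3.79 to 9.62). Subclone2 was 1.91-fold higher than subclone1 (1.43 to 2.57). On the scale of log2 ratios of RPKM + 0.1, used for all counts of genes, these differences were 1.54, 2.46 and 0.91. Among the 11370 genes that averaged 1 RPKM or more over the libraries, 248 had a higher log2 ratio than ITGA1 in subclone1 over the parent, 94 in subclone2 over the parent and 198 in subclone2 over subclone1. The length implied by the deposited ITGA1 values was 4811 bases, against 10757 bases for its longest coding GENCODE transcript. A longer model would change its level per length and its ratios to other genes within a library. It would not change its ratios between libraries for the same reads.

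ITGA2, the α subunit of α2β1, was much more abundant and differed little. Its level was 25.6 RPKM (24.0 to 27.3) in the parent, 25.7 (24.0 to 27.4) in subclone1 and 20.3 (18.9 to 21.8) in subclone2. Subclone2 was the lowest, at 0.795-fold of the parent (0.721 to 0.876) and 0.792-fold of subclone1 (0.719 to 0.873), and subclone1 was 1.00-fold of the parent (0.914 to 1.10). ITGA11, the α subunit of a receptor for fibrillar collagen, was at 0.752 RPKM (17 reads) in the parent, 0.948 (22 reads) in subclone1 and 0.336 (8 reads) in subclone2. Its interval overlapped between all 3 libraries, from 0.145 to 0.663 in subclone2 against 0.594 to 1.44 in subclone1, while the fold of subclone2 over subclone1, 0.355, had an interval below 1 (0.137 to 0.827). ITGA10, the α subunit best known from cartilage, was at 0.343, 0.0836 and 0.163 RPKM from 8, 2 and 4 reads. No order between the libraries was detectable for ITGA10 at this depth, since the fold of subclone1 over the parent was 0.243 with an interval from 0.0252 to 1.22.

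ITGB1, the β subunit that all of these α subunits need, was the most abundant of the receptors. It was at 288 RPKM (280 to 296) in the parent, 356 (348 to 365) in subclone1 and 322 (313 to 330) in subclone2. The intervals did not overlap, but the folds were small, at 1.24 for subclone1 over the parent (1.19 to 1.28), 1.12 for subclone2 over the parent (1.08 to 1.16) and 0.903 for subclone2 over subclone1 (0.871 to 0.936).

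DDR1, the collagen-activated kinase of epithelial cells, was higher in both subclones by about the same fold. Its level was 18.0 RPKM (16.0 to 20.1) in the parent, 38.4 (35.6 to 41.4) in subclone1 and 36.6 (33.9 to 39.5) in subclone2. The subclones overlapped each other and lay above the parent, by 2.13-fold for subclone1 (1.86 to 2.45) and 2.03-fold for subclone2 (1.78 to 2.33). A difference between the subclones was not detectable, with a fold of 0.953 (0.855 to 1.06) whose log2 value turned from -0.07 to 0.06 after division by ACTB. The log2 ratios of DDR1 were 1.09 and 1.02, and they stood at 0.96 in subclone1 after division by ACTB and at 0.98 in subclone2 after centring on the median, below the 2-fold line. DDR2, the kinase typical of stromal cells, had 1 read in the parent (0.0685 RPKM) and was at 0 in both subclones, where 3 reads would have been 0.200 and 0.195 RPKM, so that no fold was given.

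**Figure D1:**
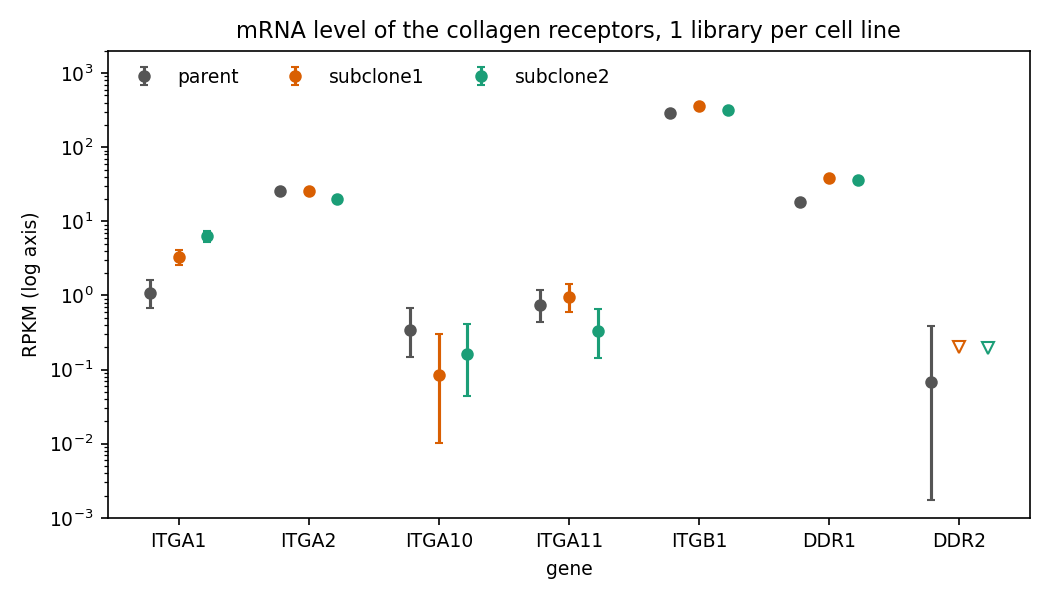
RPKM of the 7 collagen receptors (log axis) in the parent, subclone1 and subclone2, with exact 95% Poisson intervals as bars. Open triangles mark the level of 3 reads where a gene had none. ITGA1 is at 1.07, 3.29 and 6.29 RPKM, while ITGA2 lies between 20.3 and 25.7.

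In order of level the parent had ITGB1, ITGA2, DDR1, ITGA1, ITGA11, ITGA10 and DDR2. The neighbours ITGA1 and ITGA11 did not differ beyond counting error there, with a ratio of 1.42 (0.724 to 2.82), and the intervals of ITGA11 and ITGA10 and of ITGA10 and DDR2 overlapped. In both subclones DDR1 stood above ITGA2, with DDR1 at 1.5 times ITGA2 in subclone1 (1.35 to 1.65) and 1.80 times in subclone2 (1.62 to 2.0), against 0.703 times in the parent (0.616 to 0.80). ITGA1 was set apart from ITGA11 in the subclones, at 3.47 times its level in subclone1 (2.13 to 5.88) and 18.7 times in subclone2 (9.24 to 44.2).

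Of the 7 receptors, 4 passed the filter of 1 RPKM on average (ITGA1, ITGA2, ITGB1 and DDR1). Of these, 2 were at least 2-fold higher in subclone1 than in the parent (ITGA1 and DDR1), against 4.90% of all genes tested, and 0 were at least 2-fold lower, against 1.82%. In subclone2 over the parent the same 2 genes were past 2-fold, against 5.33% of all genes, and 0 were lower, against 2.16%. Between subclone2 and subclone1 0 were higher, against 1.42%, and 0 lower, against 1.39%. The median log2 ratios of the 4 receptors that passed were 0.70, 0.59 and -0.11 in these comparisons, and those of all genes tested were 0.00, 0.04 and 0.03. Over all 7 receptors, with ITGA10, ITGA11 and DDR2 on 22 reads or fewer, they were 0.30, -0.33 and -0.07, so that the sign in subclone2 over the parent rests on which receptors are counted. The receptors were few, and no test was made of the list. Without the filter, ITGA10 was past 2-fold lower in subclone1 than in the parent and ITGA11 in subclone2 than in subclone1, each on the few reads given above. The comparisons share libraries, so their values are not independent of each other.

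**Figure D2:**
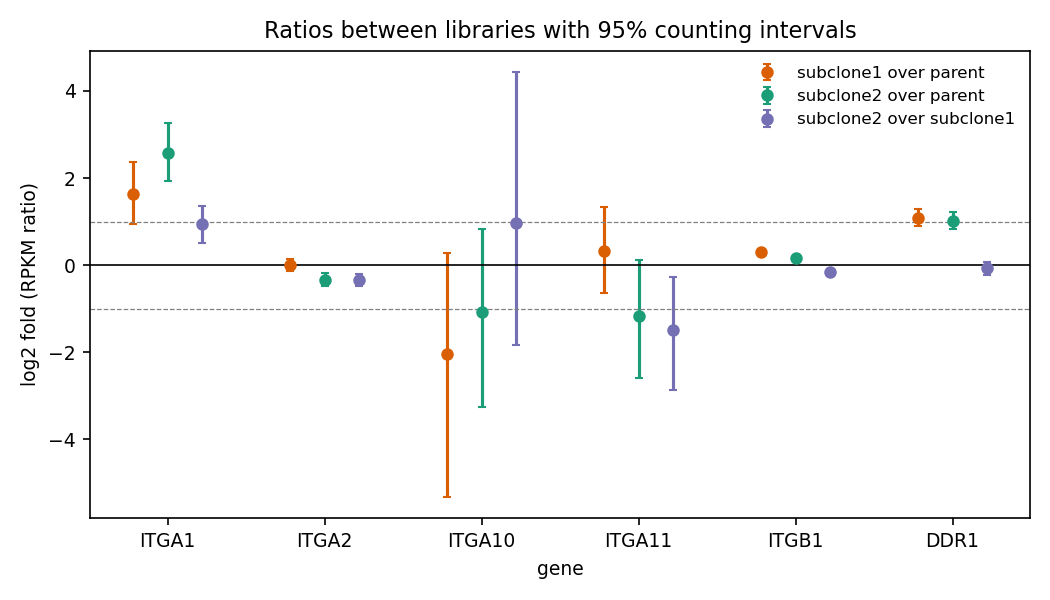
Log2 fold of RPKM (no pseudocount) for 6 receptors in the 3 comparisons, with exact 95% Clopper-Pearson intervals as bars and dashed lines at 2-fold. DDR2 is left out because it was at 0 in both subclones. ITGA1 and DDR1 lie above 0 in both subclones over the parent, and the intervals of ITGA10 cross 0 in all 3 comparisons.

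**Figure D3:**
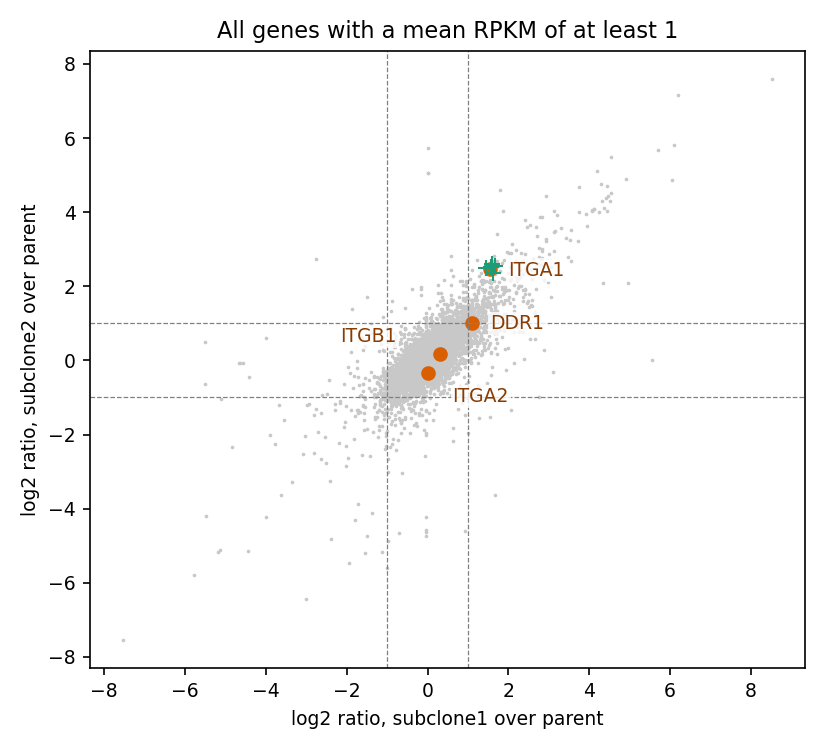
Log2 ratios of RPKM + 0.1 of subclone1 over the parent (horizontal axis) and subclone2 over the parent (vertical axis) for 11370 genes (grey), 4 receptors (orange) and the 5 genes most like ITGA1 (green crosses), with dashed lines at 2-fold. ITGA1 lies at 1.54 and 2.46 and DDR1 at 1.09 and 1.02, while ITGA2 and ITGB1 lie near the middle of the cloud.

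The ratio of 1 receptor to another within a library does not depend on how the libraries were scaled. It does depend on the gene lengths used. These were 4811 bases for ITGA1, against 10757 for its longest coding transcript, and 7878 for ITGA2, against 7869. ITGA2 was 24.0 times ITGA1 in the parent (15.9 to 38.1), 7.80 times in subclone1 (6.14 to 10) and 3.23 times in subclone2 (2.70 to 3.89). The intervals did not overlap, so the 2 α subunits stood nearest in subclone2. ITGB1 was 270 times ITGA1 in the parent (180 to 427), 108 times in subclone1 (85.9 to 138) and 51.1 times in subclone2 (43.3 to 60.8). The ratio of ITGB1 to ITGA2 went the other way, from 11.3 in the parent (10.5 to 12.1) to 13.9 in subclone1 (13.0 to 14.9) and 15.8 in subclone2 (14.7 to 17.1).

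The summed RPKM of the 4 collagen-binding α subunits was nearly level, at 27.8 in the parent, 30 in subclone1 and 27.1 in subclone2. Within it the share of ITGA1 was 3.84%, 11.0% and 23.2%, and that of ITGA2 92.2%, 85.6% and 75.0%. ITGA2 was thus the most abundant of them in every library. ITGA11 made up 2.71%, 3.16% and 1.24%, and ITGA10 1.24%, 0.279% and 0.601%. Among all 10 listed α subunits that pair with ITGB1 the collagen binders held 11.2%, 10.9% and 11.7% of the summed RPKM, and ITGA1 alone 0.430%, 1.20% and 2.72%. ITGB1 was 1.16, 1.30 and 1.39 times the sum of these α subunits. These are shares of mRNA per length, not of receptors on the surface, and they rest on the gene lengths used.

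**Figure D4:**
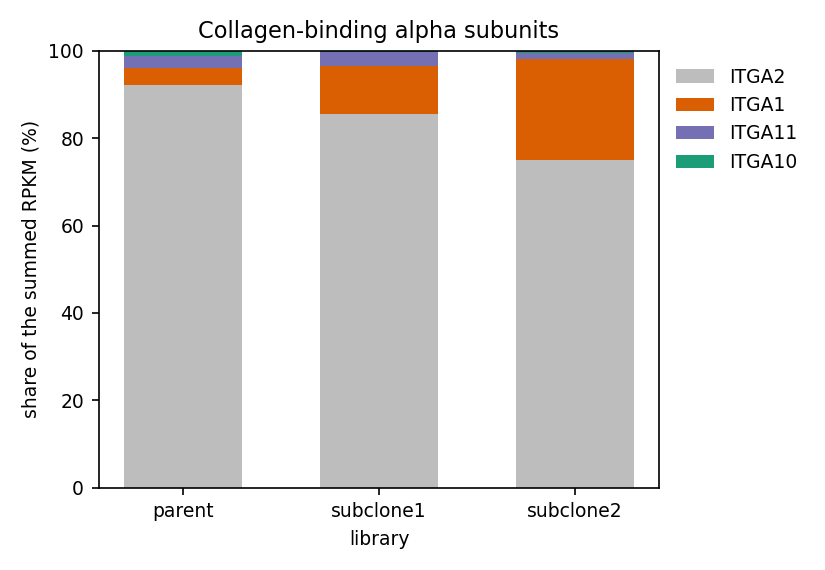
Share of the summed RPKM of ITGA1, ITGA2, ITGA10 and ITGA11 (percent, stacked from 0) in each library. The ITGA1 part is 3.84% in the parent, 11.0% in subclone1 and 23.2% in subclone2, and ITGA2 fills most of each bar.

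PELO did not follow ITGA1 although RefSeq gives both genes the same start. PELO was at 11.0 RPKM (145 reads) in the parent, 10.8 (146 reads) in subclone1 and 9.79 (136 reads) in subclone2, with folds over the parent of 0.980 (0.774 to 1.24) and 0.891 (0.700 to 1.13). PELO was 10.3 times ITGA1 in the parent (6.61 to 16.8), 3.27 times in subclone1 (2.45 to 4.39) and 1.56 times in subclone2 (1.22 to 1.98). The coding transcripts of both genes share 475 exonic bases, 10.9% of those of PELO and 4.42% of those of ITGA1, and how the authors assigned reads there was not given in the sources used here. How ITGA1 reads were kept apart from antisense RNA was not given either, and of the 5 genes that overlap ITGA1 only PELO was listed in these libraries. MOCS2, an enzyme gene of molybdenum cofactor synthesis that lies 0.900 kb beyond ITGA2, was at 24.3, 24.8 and 22.7 RPKM, with folds over the parent of 1.02 (0.821 to 1.27) and 0.933 (0.747 to 1.16). On the other side the nearest listed gene that averaged 1 RPKM or more, PARP8, was 1941 kb away and at 1.21, 1.78 and 1.56 RPKM. None of the genes plotted beside ITGA1, which averaged 1 RPKM or more, came up to its log2 ratios over the parent.

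**Figure D5:**
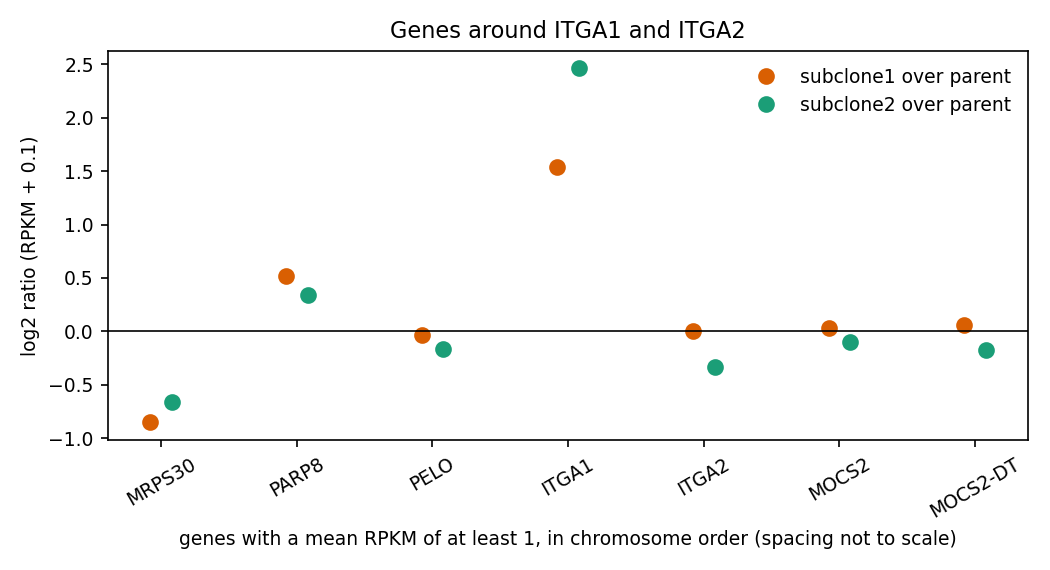
Log2 ratios of RPKM + 0.1 over the parent for subclone1 and subclone2 (vertical axis) for genes around ITGA1 and ITGA2 that averaged 1 RPKM or more, in chromosome order (horizontal axis, spacing not to scale). ITGA1 stands at 1.54 and 2.46, and its neighbours PELO and ITGA2 at -0.03 and -0.16 and at 0.00 and -0.33.

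The other members lie elsewhere in the genome. In GENCODE GRCh38, ITGA10 is on chromosome 1 from 145891208 to 145910189 (minus strand), DDR2 on chromosome 1 from 162631373 to 162787400 (plus strand), DDR1 on chromosome 6 from 30876421 to 30900156 (plus strand), ITGB1 on chromosome 10 from 32900319 to 33005792 (minus strand) and ITGA11 on chromosome 15 from 68296533 to 68432162 (minus strand).

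Among other receptors that bind collagen, 3 of 7 passed the filter, 1 of them was past 2-fold higher in subclone1 and 0 in subclone2. CD36, a scavenger receptor that also binds collagen, was at 3.39 RPKM in the parent, 7.66 in subclone1 and 3.85 in subclone2, so that it was high in subclone1 alone. Its fold over the parent was 2.26 (1.70 to 3.02) in subclone1 and 1.13 (0.820 to 1.57) in subclone2. CD44, the hyaluronan receptor, was the most abundant of the list, at 142, 165 and 136 RPKM. The median log2 ratio of the members that passed was 0.46 in subclone1 and 0.18 in subclone2 over the parent, beside 0.00 and 0.04 for all genes.

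Of 8 other α subunits that pair with ITGB1, 4 passed the filter. ITGA5, the α subunit of the fibronectin receptor, was at 40.0, 80.9 and 57.2 RPKM and past 2-fold higher in subclone1 alone (2.02-fold, 1.85 to 2.21, with a log2 ratio of 1.01 that fell to 0.88 after division by ACTB), with 1.43-fold in subclone2 (1.31 to 1.57). ITGA6, a laminin receptor subunit, was at 78.4, 55.5 and 59.4 RPKM. It was the highest of the list in the parent, and below ITGA5 and ITGAV (64.5 RPKM) in subclone1. In subclone2 it was again the highest, but its interval (56.5 to 62.3) overlapped that of ITGA5 (54.0 to 60.6). Of 7 other β subunits, 4 passed the filter and 1 was past 2-fold. ITGB3, which pairs with ITGAV in the vitronectin receptor, was at 0.819 RPKM (18 reads) in the parent, 2.57 (58 reads) in subclone1 and 0.216 (5 reads) in subclone2. It was higher in subclone1 (3.14-fold, 1.82 to 5.66) and lower in subclone2 (0.264-fold, 0.0766 to 0.737). ITGB5 was the most abundant β subunit of this list, at 55.1, 53.0 and 57.2 RPKM. The median log2 ratios over the parent were 0.06 and -0.24 for these α subunits and 0.25 and 0.14 for the β subunits.

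Of 11 genes for collagen chains, the ligands, 5 passed the filter. In subclone1 over the parent 1 was past 2-fold higher and 0 lower, and in subclone2 0 were higher and 2 lower, with median log2 ratios of 0.65 and 0.35. COL6A1, a chain of the microfibrillar collagen VI, was the most abundant, at 103, 163 and 132 RPKM. COL5A2 was at 7.36, 19.8 and 12.6 RPKM, 2.70-fold higher in subclone1 (2.31 to 3.15) and 1.71-fold in subclone2 (1.45 to 2.02). COL3A1, of fibrillar collagen III, went the other way at 4.42, 2.21 and 0.463 RPKM, with 0.105-fold in subclone2 (0.0524 to 0.190). COL6A3 was at 13.0, 6.67 and 4.45 RPKM, with 0.343-fold in subclone2 (0.293 to 0.400). Named after their values were seen, COL4A1 and COL4A2 of basement membrane collagen IV, a ligand of α1β1, and COL1A1 and COL1A2 of collagen I, a ligand of α2β1, were below 1 RPKM in every library.

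The next lists hold the genes that switch integrins on and off and carry their signals. Of 9 activators 7 passed the filter and 1 was past 2-fold, APBB1IP (the RAP1 effector RIAM), at 2.01, 1.22 and 0.557 RPKM from 24, 15 and 7 reads and at 0.277-fold of the parent in subclone2 (0.101 to 0.663). FERMT1, another activator, was at 0.498-fold of the parent in subclone1 (0.408 to 0.606), past 2-fold lower only without the added 0.1 RPKM, which gave a log2 ratio of -0.99. RAP1B, the most abundant activator, was at 151, 165 and 160 RPKM. All 6 inactivators passed the filter, with 0 past 2-fold and FLNA, filamin A, the most abundant at 334, 321 and 283 RPKM. Of these, DOK1 was at 0.475-fold of the parent in subclone2 (0.199 to 1.06), past 2-fold lower only without the added 0.1 RPKM. Of 14 focal adhesion adaptors 12 passed, with 0 past 2-fold and TES the most abundant at 323, 338 and 345 RPKM. The 8 signalling adaptors of integrins and DDR all passed with 0 past 2-fold, and CAV1, caveolin-1, which links α1β1 to SHC1, was the most abundant at 2449, 2554 and 1809 RPKM. The median log2 ratios of these lists over the parent lay between -0.10 and 0.08 in subclone1 and between -0.04 and 0.12 in subclone2.

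Of 8 focal adhesion kinases 7 passed the filter, and 1 was past 2-fold higher in both subclones. PTK2B, a kinase related to focal adhesion kinase, was at 2.06, 4.98 and 6.60 RPKM, lowest in the parent as ITGA1 was, with 2.41-fold in subclone1 (1.69 to 3.51) and 3.20-fold in subclone2 (2.27 to 4.58). PTK2, focal adhesion kinase itself and the most abundant of the list, was at 51.9, 70.2 and 67.6 RPKM. Of 7 genes for shedding and trafficking 6 passed. MMP14, a membrane protease that cleaves collagen and DDR1, was at 8.08, 17.9 and 15.8 RPKM, 2.21-fold higher in subclone1 (1.79 to 2.74) and 1.96-fold in subclone2 (1.58 to 2.44), where the log2 ratio of 0.96 was just short of 2-fold. VPS35, the most abundant of that list, was at 112, 106 and 102 RPKM. The median log2 ratios over the parent were 0.25 and 0.31 for the kinases and 0.13 and 0.04 for shedding and trafficking. Over these 10 lists 62 genes passed the filter. In subclone1 over the parent 6 of them (9.68%) were past 2-fold higher and 0 lower, beside 4.90% and 1.82% of all genes tested. In subclone2 over the parent 1 (1.61%) was higher and 4 (6.45%) were lower, beside 5.33% and 2.16%. ITGB3, counted among both the 6 and the 4, was above 1 RPKM in subclone1 alone, through which it passed the filter.

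Markers of other cell types that carry these receptors were mixed, with defining markers at 0 and others above ITGA1, and some moved with the subclones. The summed RPKM of 10 fibroblast markers was 15.7 in the parent, 31.2 in subclone1 and 24.3 in subclone2, with 5, 6 and 5 of them above 0. The defining markers PDGFRA, PDGFRB, FAP and ACTA2 were at 0 in every library. LUM was at 10.1, 24.0 and 21.0 RPKM and DCN at 0.773, 4.42 and 2.75, both past 2-fold higher in the subclones, while COL3A1, the other fibroblast marker that passed the filter, was past 2-fold lower in subclone2, at the levels given above. The summed RPKM of 7 endothelial markers was 5.11, 12 and 7.66 with 4, 6 and 5 above 0, TIE1 at 0 in every library and CDH5 at 0 in the parent and subclone2. PECAM1 was at 3.33, 9.81 and 4.46 RPKM and KDR at 1.36, 1.93 and 3.08. The summed RPKM of 7 leukocyte markers was 77.2, 115 and 102 with 6, 4 and 4 above 0, most of it CD68 at 75.3, 112 and 99.6 RPKM, and CD3E was at 0 in every library. Of the hepatocyte markers ALB was at 2.46, 49.5 and 68.8 RPKM, APOB at 0.300, 1.23 and 4.17, and TF at 5.71, 30.3 and 5.88. The part of these markers in the ITGA1 and DDR1 ratios was not tested.

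The genes whose pattern was most like that of ITGA1 were taken by the distance between their log2 ratios of subclone1 and of subclone2 over the parent and those of ITGA1, over 3 libraries and 11370 genes. The 5 nearest were CDHR2 (distance 0.07), CXCL5 (0.10), LOC729234 (0.14), ERBB3 (0.14) and SCNN1A (0.16). CDHR2, a protocadherin of the brush border, was at 2.17, 6.59 and 12.9 RPKM. CXCL5, a chemokine that attracts neutrophils, was at 38.4, 105 and 217 RPKM. ERBB3, a receptor of the EGF receptor family, was at 5.80, 17.6 and 35.4 RPKM and SCNN1A, a subunit of the epithelial sodium channel, at 4.71, 15.2 and 28.1 RPKM. LOC729234 was at 0.261, 1.02 and 1.74 RPKM. With 3 libraries a pattern is only a pair of ratios, and 373 genes (3.28%) were past 2-fold higher in both subclones over the parent. Of these, 20 were also past 2-fold higher in subclone2 over subclone1, a line that ITGA1 at 0.91 and ERBB3 at 1.00 stood close to.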

How the data were processed

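Libraries of 3 cultured lines were made with an Illumina TruSeq RNA kit. The authors deposited RPKM per gene, with hg19 in their processing notes. The aligner, counter, annotation, strand and treatment of shared reads were not given in the sources used here. Only genes above 0 were listed.

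Groups came from the titles. Ratios were log2 of RPKM + 0.1, and a call was a ratio of at least 2-fold among 11370 genes averaging 1 RPKM or more. No p-value was computed, since each group has 1 library. Library totals were read from the common step of low RPKM and from 653 and 625 genes with equal reads. The smallest whole length and reads that fitted every library were taken, if that length lay between 0.5 of the median and 1.5 of the longest transcript in GENCODE release 29, or else a multiple within 10% of a transcript. This rule was revised after values were seen. It resolved 98.8% of these genes, which held 95.7% to 95.8% of the totals. Understated reads widen intervals. Tested on simulated data of 15364 genes for subclone1 over the parent, 93.3% of resolved genes had the right reads and 6.50% understated reads. Of 200 genes changed 4-fold 100% were called, smaller changes were not simulated, and 1.10% of unchanged genes were called. The changed genes were drawn above a floor of expected reads that ITGA10, ITGA11 and DDR2 did not reach. The simulated counts held counting error only. They were made with the lengths that this rule had recovered, so the simulation could not show an error in those lengths. Of 10010 genes compared, 83.5% had a recovered length within 10% of a GENCODE transcript, a closeness that the rule itself sought for some genes. Poisson and Clopper-Pearson intervals were exact at 95%.

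The members and lists were chosen with earlier results of these data known. Named genes were all members, of the other lists those past 2-fold in a subclone over the parent (at most 4) and the most abundant, the 5 nearest to ITGA1, and the nearest listed neighbours of ITGA1 and ITGA2, of which those averaging under 1 RPKM are not reported here, a limit set after values were seen. The alternatives, whose effect is given at the end, were other pseudocounts, scalings, filters and a lower fold. RefSeq (GRCh38.p14) matched 16057 of 16149 gene numbers and gave the promoters. Scripts ran in Python 3.11.15 with scipy 1.17.1, pandas 2.3.3, numpy 2.4.6 and matplotlib 3.10.9.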

Additional observations from a re-analysis of the deposited data

Results flagged for a closer look

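Among the receptors and the genes named from the lists, 7 had log2 ratios over the parent of opposite signs in the 2 subclones. With 1 library each these differences were not tested. Other genes were not counted, and ITGAV, at 0.14 and -0.15, also had opposite signs. For ITGB3 the counting intervals of both folds over the parent, 1.82 to 5.66 and 0.0766 to 0.737, excluded 1. Those of CAV1, ITGAV and the reference gene GAPDH also excluded 1 in both subclones, at smaller log2 ratios, so this was not particular to ITGB3. ITGB3 had a log2 ratio of 1.54 in subclone1 and -1.54 in subclone2 over the parent, and -3.08 in subclone2 over subclone1, on 18, 58 and 5 reads. ITGA11 had 0.30 and -0.97 over the parent and -1.26 between the subclones, and the intervals of both folds over the parent, 0.639 to 2.53 and 0.167 to 1.09, included 1. CAV1 had 0.06 and -0.44, with -0.50 between the subclones. ITGA2 had 0.00 and -0.33, with -0.33 between them. CD44 had 0.22 and -0.06, with -0.27 between them. The reference gene GAPDH had 0.05 and -0.06, with -0.12 between them, and ITGB5 had -0.06 and 0.05, with 0.11 between them. The intervals of ITGB5 over the parent, 0.873 to 1.06 and 0.943 to 1.14, included 1, as did those of ITGA2 in subclone1 (0.914 to 1.10) and CD44 in subclone2 (0.918 to 1.01). The opposite signs were lost under at least 1 alternative for ITGA2 (-0.13 to 0.02 in subclone1 over the parent), CAV1 (-0.07 to 0.07 in subclone1), CD44 (-0.09 to 0.01 in subclone2) and GAPDH (-0.08 to 0.07 in subclone1).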

How the results depend on the processing

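No paired analysis was possible because there was 1 library of each line, and for the same reason no library could be left out. Of 147 log2 ratios of the receptors under 7 alternatives of pseudocount and scaling, 141 moved by less than their counting interval, 6 moved by more and 0 changed sign where the interval excluded 0. The 6 were ITGA1 in subclone2 over the parent, 1.82 with a pseudocount of 1, and ITGB1, which with division by ACTB was 0.17 in subclone1 over the parent and -0.02 in subclone2 over subclone1, and with division by GAPDH 0.25, 0.22 in subclone2 over the parent and -0.03. Of 588 ratios of the other named genes 542 moved by less and 46 by more. Some changed sign under an alternative although their interval excluded 0. In subclone1 over the parent CAV1 was at 0.06, with a lowest value of -0.07, and GAPDH at 0.05, with a lowest value of -0.08. The cause of these shifts was not tested.

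Receptors past 2-fold higher in subclone2 over the parent numbered 1 in place of 2 with a pseudocount of 1, median centring, upper-quartile scaling or a mean RPKM of at least 5. In subclone1 over the parent they numbered 1 with division by ACTB, where DDR1 fell short, or with a mean of at least 5. At a mean of at least 5 the receptor lost in both subclones was ITGA1, which averaged 3.55 RPKM. Between the subclones, receptors past 2-fold higher numbered 1 in place of 0 with ACTB or GAPDH, as did those past 1.5-fold. Without a filter 1 was lower in subclone1 over the parent and 1 in subclone2 over subclone1.

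For the other lists, higher genes in subclone1 over the parent numbered 6, and 2 with a pseudocount of 1 and 3 with a mean of at least 5. In subclone2 over the parent they numbered 1, and 2 with GAPDH, 0 with a mean of at least 5 and 5 at 1.5-fold. Between the subclones 2 were higher with no filter. Lower genes in subclone1 over the parent numbered 0, and 1 with a pseudocount of 0.01 or the same sum of RPKM, 3 with ACTB, GAPDH or no filter and 5 at 1.5-fold. In subclone2 over the parent lower genes numbered 4, and 2 with a pseudocount of 1, 1 with a mean of at least 5 and 8 at 1.5-fold. In subclone2 over subclone1 they numbered 3, and 6 with no filter, 0 with a mean of at least 5 and 7 at 1.5-fold.

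Over all genes, 557 were higher and 207 lower in subclone1 over the parent, 606 and 246 in subclone2 over the parent, and 161 and 158 between the subclones. A pseudocount of 1 left 347 higher and 117 lower, 380 higher and 150 lower, and 80 higher and 77 lower in the same order. Leaving out the filter gave 1523 higher and 884 lower, 1553 higher and 941 lower, and 842 higher and 902 lower. A minimum mean of 5 left 233 higher and 71 lower, 253 higher and 93 lower, and 43 higher and 46 lower. A fold of 1.5 gave 1317 higher and 848 lower, 1444 higher and 830 lower, and 540 higher and 467 lower. With ACTB 328 were lower in subclone1 over the parent, and the share of higher among called genes there was 57.8% against 72.9%, with the median log2 ratio at -0.13. Between the subclones that share was 50.5%, and 64.0% with ACTB and 62.6% with GAPDH, with medians of 0.16 and 0.15. Depth limits ITGA10, ITGA11 and DDR2, with 22 reads or fewer, most.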
